A study of Schizosaccharomyces pombe with 21 samples.

Results

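A set of 9 genes of iron acquisition in fission yeast (Schizosaccharomyces pombe) was followed across 21 poly(A)+ RNA-seq libraries. The genes were picked by their systematic identifiers, which are rows of both count tables, with earlier results of these data known. The study had named frp1, frp2, abc3, str1, srx1, fip1 and fio1 from these samples. The members are frp1 (SPBC1683.09c), frp2 (SPBC947.05c), fip1 (SPAC1F7.07c), fio1 (SPAC1F7.08), str1 (SPBC4F6.09), str3 (SPAC1F8.03c), shu1 (SPAC1F8.02c), abc3 (SPBC359.05) and srx1 (SPBC106.02c). They are 9 of the 6988 loci counted, and all 9 were found in both tables. The label of the set as iron uptake genes holds for 7 of them by known function. Abc3 is a vacuolar transporter and Srx1 is a sulfiredoxin of the oxidative stress response, and they are kept as members but described apart.

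When iron is plentiful, fission yeast shuts its iron uptake genes through Fep1, a GATA-type repressor that binds GATA sequences in their promoters. When iron is scarce, Fep1 lets go and a second repressor, Php4, turns down genes whose proteins consume iron. Known routes of iron entry are reduction of ferric iron followed by uptake through an oxidase and permease pair, import of iron bound to siderophores, and import of heme.

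The study asked how mutations that disturb inositol pyrophosphates, small signalling molecules of phosphate homeostasis, alter the transcriptome. Asp1 makes and, through a second domain, destroys the inositol pyrophosphate IP8, and Kcs1 is an IP6 kinase. In the first experiment the groups were STF6 (asp1-W386*), STF9 (asp1-W493*) and the control asp1-WT. Both alleles carry a stop codon that truncates the pyrophosphatase domain. All 3 groups carried the hygMX drug marker at asp1 and grew in ePMGT, a synthetic medium. In the second experiment the groups were the missense mutants kcs1-R332T, kcs1-L338R and kcs1-E834K and the control kcs1-WT. These 4 groups carried the kanMX marker at kcs1 and grew in YES, a medium made from yeast extract. All cultures were haploid h+ strains in log phase at 30 °C, with 3 biological replicates per group. The labels give 1 strain number per group, except that asp1-WT replicate 1 has another strain number than asp1-WT replicates 2 and 3.

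Total counts ran between 20547260 and 35919903 reads per library in the STF experiment and between 19515604 and 27776638 in the kcs1 experiment. No replicate pair was a duplicate, since the smallest chi-square per degree of freedom was 3.24. Transcripts of the mutated genes were present in all groups. The asp1 mRNA was higher in STF6 than in asp1-WT (log2 fold change 0.41, SE 0.10, edgeR adjusted p = 0.00971), and the kcs1 mRNA passed no test in the kcs1 mutants. Since such alleles need not alter mRNA levels, these values do not check the labels. The P-cell genes map2 and map3, which fit the h+ mating type, summed to between 100.5 and 131 CPM in STF6 and between 139 and 151 CPM in STF9, against 41.6 to 43.8 CPM in asp1-WT. The 5 M-cell genes (mam1, mam2, mfm1, mfm2 and mfm3) summed to between 51.1 and 63.9 CPM in STF6 and between 58.5 and 62.1 CPM in STF9, against 75.8 to 83.4 CPM in asp1-WT, where they exceeded the P-cell sum. Most of that sum was mam1, at means of 43.7 CPM in STF6 and 46.6 CPM in STF9, against 67.8 CPM in asp1-WT, a fall in both (log2 fold change -0.63, SE 0.11, and -0.55, SE 0.11, edgeR adjusted p = 7.48e-04 and 0.00182). The M-factor genes mfm1 and mfm2 rose (mfm1 1.65, SE 0.31, and 1.53, SE 0.31; mfm2 0.80, SE 0.16, and 0.56, SE 0.17, on the log2 scale), mfm1 at only 1.49 and 1.38 CPM in STF6 and STF9, against 0.476 CPM in asp1-WT, and mam2 and mfm3 did not pass. In every group of the kcs1 experiment the M-cell sum exceeded the P-cell sum. In kcs1-WT the M-cell sum was 63.2 to 69.4 CPM and the P-cell sum 22.9 to 27.2 CPM. The mutants had 61.8 to 67.9 and 20.6 to 25.0 CPM (kcs1-R332T), 59.2 to 73.7 and 24.7 to 29.7 CPM (kcs1-L338R), and 58.3 to 63.0 and 26.1 to 29.1 CPM (kcs1-E834K). These sums do not check the mating type. The part of the STF6 and STF9 shifts in the results on iron genes was not tested.

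Each promoter was searched for GATA letters, because Fep1 is known to bind them. The window was the 500 bases before the annotated start of the gene, read by gene identifier from the RefSeq genome ASM294v3 with its own annotation. AGATAA or TGATAA occurred on either strand in 8 of the 9 windows, and in 64.4% of 5106 windows of coding genes. The longer forms ATCAGATAA and ATCTGATAA, which contain the shorter ones, occurred in 7 of the 9 windows (fip1 and fio1 share 1 element), against 2.25% of all windows. Both frp1 and frp2 held 2 of the longer forms, as did 0.176% of all windows. In the annotation frp2 has 1695 bases of exon and 1695 of coding sequence, so its window and distances count from the start codon. Every other member has exon beyond its coding sequence (2036 against 1695 bases for frp1). The stretches below show these longer elements in the sense direction of each gene, with the element in capitals. They are given because the same letters recur in genes whose mRNAs behaved differently in the comparisons that follow.
frp1 distal: actttagctcATCAGATAAaaaatagact
frp1 proximal: aatttggttgATCTGATAAcgcatcaaga
frp2 distal: ttgctatctgATCAGATAAaattttcttg
frp2 proximal: acagagggagATCTGATAAgttactttac
fio1: tctggattacATCTGATAActtttgtcca
str1: gtaactagctATCAGATAAaaatttcgtc
shu1: tatcaagataATCAGATAAtttagcttaa
abc3: tccgattaatTTATCAGATgttattaagc

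The elements lay 388 to 380 and 96 to 88 bases before the start of frp1 (chromosome II, minus strand), and 473 to 465 and 410 to 402 bases before frp2 (chromosome II, plus strand). They lay 236 to 228 bases before fio1 (chromosome I, plus strand), 453 to 445 before str1 (chromosome II, plus strand), 130 to 122 before shu1 (chromosome I, minus strand) and 97 to 89 before abc3 (chromosome II, plus strand). In abc3 the element reads on the opposite strand. The fip1 element is that of fio1: these genes diverge from one stretch of 303 bases with no counted locus between them, and the element lies 76 to 68 bases before fip1. The srx1 window held only the shorter forms, one of them 62 to 57 bases before the start.
srx1: tcgattcatcttTGATAAtgatgtcatatt
The str3 window held neither form. A match to these letters is a description of the window and not a binding site.

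**Figure D1:**
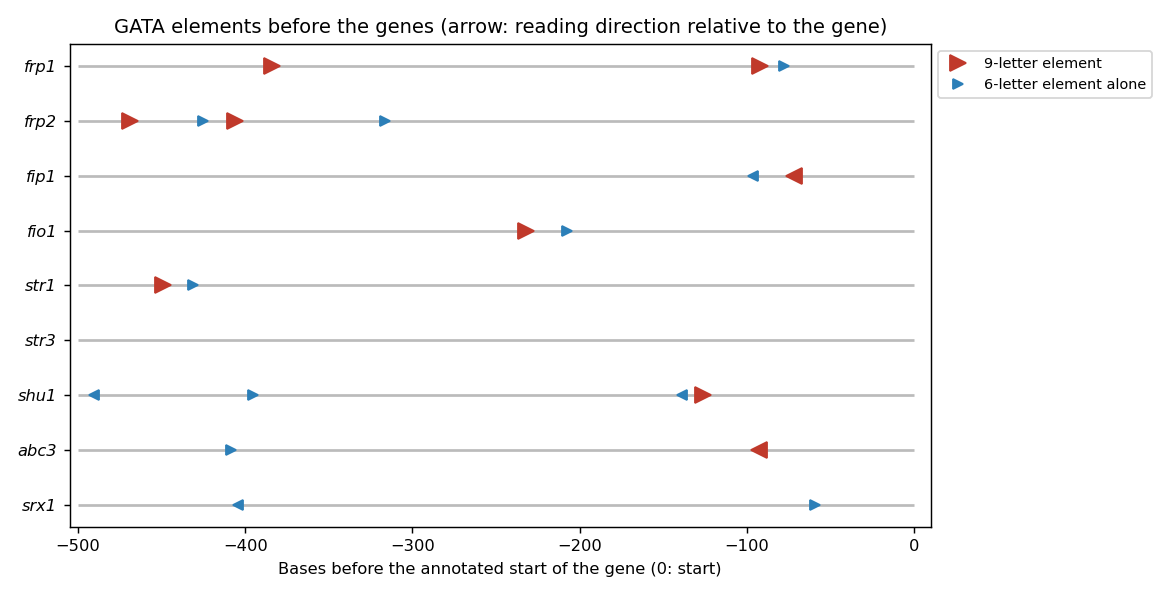
Positions of GATA letters in the 500 bases before each gene; the horizontal axis gives bases before the annotated start, large red arrows mark the 9-letter forms, small blue arrows the 6-letter forms outside them, and arrows point in the reading direction relative to the gene. In all, 7 genes hold a 9-letter form, srx1 holds only the shorter ones and str3 holds neither.

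The largest differences among these mRNAs were between the wild-type strains of the 2 experiments. Of the 8 members that could be tested, str3 had entered the test only through asp1-WT, where it is high, and is left out of the counts here. The other 7 were all higher in asp1-WT cells in ePMGT than in kcs1-WT cells in YES, with log2 fold changes between 2.16 and 6.13 and a median of 5.00, against a median of 0.07 over all loci. Of all 6042 loci tested, 34.4% passed in this direction at an adjusted p of 0.05 or less, and 29.8% in the other. At the stricter rule (a 2-fold change or more, and normalized counts that average at least 100 on the higher side) these 7 members were called, against 4.24% of loci. Medium, drug marker, strain and experiment differ together here and cannot be told apart. In bulk RNA a change in the share of cells that express a gene and a change in RNA per cell cannot be told apart either.

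The ferric-chelate reductase mRNA frp1 had 302, 358 and 325 CPM in the asp1-WT libraries, against 5.44, 4.55 and 4.31 CPM in kcs1-WT. Every asp1-WT library lay far above every kcs1-WT library, a 70.1-fold difference (log2 fold change 6.13, SE 0.11, edgeR adjusted p = 2.5e-13). The other ferric reductase mRNA, frp2, had 27.4, 34.4 and 24.3 CPM in asp1-WT, against 3.81, 3.14 and 3.40 CPM in kcs1-WT. It did not overlap between the strains either, but its 8.46-fold difference (log2 fold change 3.08, SE 0.16, edgeR adjusted p = 6.08e-09) was much smaller than that of its relative.

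The iron permease gene fip1 and the ferroxidase gene fio1, whose products work as a pair, differed by like amounts. The fip1 mRNA had 871, 986 and 779 CPM in asp1-WT, against 14.2, 12.9 and 16.6 CPM in kcs1-WT. The fio1 mRNA had 305, 363 and 288 CPM in asp1-WT, against 6.44, 6.15 and 7.62 CPM in kcs1-WT. Groups were far apart for both, at 61.4-fold for fip1 (log2 fold change 5.94, SE 0.12, edgeR adjusted p = 3.74e-13) and 48.0-fold for fio1 (log2 fold change 5.59, SE 0.11, edgeR adjusted p = 3.74e-13).

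Among the transporters of siderophores and heme, str1, which encodes a transporter of ferrichrome-bound iron, had 573, 791 and 631 CPM in asp1-WT, against 22.8, 21.1 and 19.8 CPM in kcs1-WT (31.9-fold, log2 fold change 5.00, SE 0.13, edgeR adjusted p = 5.6e-12). The str3 mRNA, for a transporter of the same family that takes part in heme uptake, had 1555, 3653 and 1822 reads in asp1-WT, against 6, 1 and 2 reads in kcs1-WT. It had the largest fitted difference of all 6042 loci (log2 fold change 8.97, SE 0.57, edgeR adjusted p = 2.91e-08). It had entered the test only through its reads in asp1-WT, and the ratio of the summed CPM was 489, with an exact 95% interval of 257 to 1070 for counting error alone. The mRNA of the heme receptor gene shu1 was close to absent in both wild types, with 10, 5 and 5 reads in asp1-WT, against 1, 1 and 0 reads in kcs1-WT, and was not tested.

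The vacuolar ABC transporter gene abc3 showed the smallest difference of the members tested. It had 260, 275 and 232 CPM in asp1-WT, against 62.1, 59.2 and 52.9 CPM in kcs1-WT (4.48-fold, log2 fold change 2.16, SE 0.08, edgeR adjusted p = 2.7e-10). The sulfiredoxin gene srx1 had 40.3, 42.1 and 39.1 CPM in asp1-WT, against 3.49, 3.28 and 3.92 CPM in kcs1-WT (11.5-fold, log2 fold change 3.53, SE 0.12, edgeR adjusted p = 2.09e-10). Neither gene overlapped between the strains. Ranked by the size of the difference, str3, frp1, fip1, fio1 and str1 took places 1, 3, 4, 5 and 8 among all loci, and srx1, frp2 and abc3 took places 24, 41 and 103.

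The order of the members by level also differed between the wild types. On the length-corrected scale (RPKM, CPM per kilobase of exon), asp1-WT in ePMGT ranked fip1 at 496 ± 58.6, str1 at 222 ± 37.8, frp1 at 161 ± 13.7 and fio1 at 114 ± 14.0 (SD, n = 3), with no overlap between neighbours. Below them srx1 at 53.3 ± 1.93 RPKM, abc3 at 53.0 ± 4.58, str3 at 33.0 ± 19.1 and frp2 at 16.9 ± 3.06 overlapped in turn. The shu1 mRNA was last at 0.259 ± 0.0809 and did not overlap frp2. In kcs1-WT in YES abc3 came first, at 12 ± 0.976 RPKM, and did not overlap fip1 (8.22 ± 1.04), which itself overlapped str1 (7.10 ± 0.503). Then came srx1 at 4.69 ± 0.427 RPKM, while fio1 (2.40 ± 0.279), frp1 (2.34 ± 0.293) and frp2 (2.04 ± 0.198) overlapped in turn. Thus fip1 exceeded abc3 in asp1-WT and fell below it in kcs1-WT. In the kcs1 mutants, also in YES, fip1 exceeded abc3. The means were 20.8 against 14.6 RPKM in kcs1-R332T, 16.9 against 10.7 in kcs1-L338R and 18.3 against 10.8 in kcs1-E834K. The str3 and shu1 mRNAs were at 0.0648 ± 0.0575 and 0.0431 ± 0.0374 RPKM in kcs1-WT and overlapped.

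**Figure D2:**
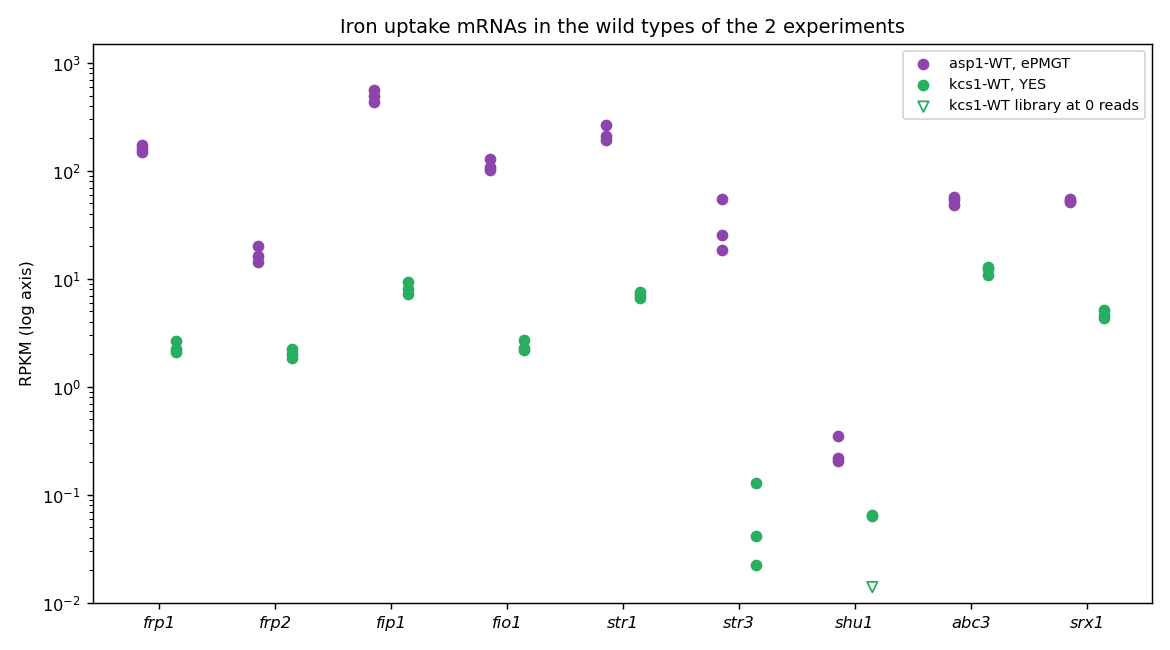
Levels of the 9 mRNAs in the wild types, as RPKM on a log axis; each point is 1 library, purple for asp1-WT in ePMGT and green for kcs1-WT in YES, and the open triangle marks a library with 0 reads. For the 7 genes counted in the text the 3 purple points lie above the 3 green ones, where 34.4% of all loci passed as higher. The share of loci without overlap was not counted. The points of str3 (18.7 to 54.6 RPKM, against 0.0225 to 0.130 RPKM) and shu1 are also parted, but both genes have few or no reads in kcs1-WT.

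In the asp1 mutants in ePMGT, most of the iron acquisition mRNAs fell, while fip1 and str3 did not pass. The shu1 gene had entered the test only through the mutants, where it is high, and is left out of the counts here. Of the other 8 members, 6 were lower in STF6 than in asp1-WT and 5 in STF9, where 11.6% and 15.1% of all 6144 loci passed in that direction, and none was higher, where 16.6% and 18.2% of loci were. Under the stricter 2-fold rule, frp1, frp2 and abc3 were called lower in both mutants, 3 of 8 members, against 1.73% of loci in STF6 and 1.87% in STF9. The median log2 fold change of the 8 members was -0.72 in STF6 and -0.49 in STF9, against 0.06 and -0.03 over all loci. The study itself named frp1, frp2 and abc3 from these samples, so their calls are not independent evidence, and both mutants were compared with the same asp1-WT libraries.

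Reductase mRNAs fell furthest among the uptake genes. The frp1 mRNA had 138, 136 and 105 CPM in STF6 and 163, 126 and 181 CPM in STF9, against 302, 358 and 325 CPM in asp1-WT. All 6 mutant libraries lay below the lowest asp1-WT library, 2.59-fold lower in STF6 (log2 fold change -1.37, SE 0.14, edgeR adjusted p = 9.57e-06) and 2.11-fold lower in STF9 (-1.08, SE 0.13, edgeR adjusted p = 6.94e-05). The frp2 mRNA had 8.40, 8.84 and 6.02 CPM in STF6 and 10.6, 8.09 and 12.5 CPM in STF9, against 27.4, 34.4 and 24.3 CPM in asp1-WT. It too showed no overlap and had the deepest fall of the set, 3.70-fold in STF6 (log2 fold change -1.89, SE 0.20, edgeR adjusted p = 1.45e-05) and 2.79-fold in STF9 (-1.48, SE 0.19, edgeR adjusted p = 1.04e-04). An antisense noncoding RNA that was not counted covers all of frp2 in the annotation used here, and how the counting treated strand is not stated.

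Of the oxidase and permease pair, fio1 passed the test and fip1 did not, and the difference between the genes was not tested. The fio1 mRNA had 235, 234 and 176 CPM in STF6 and 246, 202 and 249 CPM in STF9, against 305, 363 and 288 CPM in asp1-WT. The groups did not overlap, and fio1 fell in STF6 (log2 fold change -0.56, SE 0.13, edgeR adjusted p = 0.00514) and in STF9 (-0.46, SE 0.13, edgeR adjusted p = 0.0137). The fip1 mRNA, transcribed away from the same 303 bases, had 899, 918 and 636 CPM in STF6 and 995, 863 and 1040 CPM in STF9, against 871, 986 and 779 CPM in asp1-WT. Its groups overlapped, and neither difference passed (log2 fold change -0.10, SE 0.14, and 0.13, SE 0.14, edgeR adjusted p = 0.647 and 0.513).

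The siderophore transporter mRNA str1 had 435, 431 and 315 CPM in STF6 and 471, 428 and 503 CPM in STF9, against 573, 791 and 631 CPM in asp1-WT. The mutants lay below the wild type without overlap, and str1 fell in both (log2 fold change -0.75, SE 0.14, and -0.52, SE 0.14, edgeR adjusted p = 0.00169 and 0.0142). The str3 mRNA had 81.4, 96.5 and 60.5 CPM in STF6 and 100.5, 71.6 and 101 CPM in STF9, against 39.0, 114 and 53.4 CPM in asp1-WT. Here asp1-WT replicate 2 stood above every mutant library and replicates 1 and 3 below every one, and no difference passed (log2 fold change 0.21, SE 0.30, and 0.40, SE 0.30, edgeR adjusted p = 0.648 and 0.331). Same-numbered STF6 and asp1-WT libraries deviated together, and with the replicate number as a block in a fit of these 2 groups str3 was higher in STF6 (log2 fold change 0.27, SE 0.08, edgeR adjusted p = 0.00198). Without asp1-WT replicate 2, str3 was higher in STF6 (log2 fold change 0.78, SE 0.21, edgeR adjusted p = 0.0177) and in STF9 (0.97, SE 0.21, edgeR adjusted p = 0.00576). In that fit the STF9 falls of fio1 and str1 no longer passed (log2 fold change -0.36 and -0.38, edgeR adjusted p = 0.0698 and 0.0767), nor did they without STF9 replicate 2 (-0.39 and -0.47, edgeR adjusted p = 0.0772 and 0.0713).

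The heme receptor mRNA shu1 moved the other way at a very low level. It had 40, 45 and 40 reads in STF6 and 71, 56 and 36 reads in STF9, against 10, 5 and 5 reads in asp1-WT. Every mutant library was above every wild-type one, and shu1 rose (log2 fold change 2.83, SE 0.34, and 3.34, SE 0.34, edgeR adjusted p = 5.29e-05 and 1.17e-05). It entered the test only through the mutant libraries, and at 1.91 ± 0.252 RPKM in STF6 and 2.72 ± 0.479 RPKM in STF9, against 0.259 ± 0.0809 in asp1-WT (SD, n = 3), it stayed the lowest of the 9 mRNAs. Its neighbour str3 lies on the same strand 1922 bases away.

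The 2 members outside uptake also fell. The abc3 mRNA had 90.7, 88.5 and 78.7 CPM in STF6 and 108, 98.2 and 108 CPM in STF9, against 260, 275 and 232 CPM in asp1-WT. These groups were widely separated, and abc3 fell 2.96-fold in STF6 (log2 fold change -1.57, SE 0.09, edgeR adjusted p = 5.29e-08) and 2.45-fold in STF9 (-1.29, SE 0.09, edgeR adjusted p = 3.06e-07). The srx1 mRNA had 28.1, 27.2 and 19.8 CPM in STF6 and 34.7, 32.1 and 33.4 CPM in STF9, against 40.3, 42.1 and 39.1 CPM in asp1-WT. It fell in STF6 (log2 fold change -0.69, SE 0.13, edgeR adjusted p = 0.00153). In STF9 its 3 libraries lay below the wild type but the difference did not pass (-0.29, SE 0.13, edgeR adjusted p = 0.101). It passed there in a fit of only STF9 and asp1-WT (edgeR adjusted p = 0.0063).

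No member differed between STF9 and STF6 in edgeR's quasi-likelihood test or in DESeq2, where 0.0814% of loci were higher and 0 lower by edgeR. Of the members, 3 were at an unadjusted p under 0.05, as were 1374 of all 6144 loci tested. Without shu1, the log2 fold changes of STF9 over STF6 lay between 0.10 and 0.41. Their median was 0.25, against -0.04 over all loci. STF6 replicate 3 was the lowest STF6 library for all 9 members on the CPM scale. The siderophore and uptake genes str2, sib1, sib2 and sib3 were also lowest there, as were the regulator genes fep1, php2, php3, php4, php5 and tup12. The regulator gene tup11 was not lowest there, and grx4 was highest. STF6 replicate 3 had the largest scaling factor of all 21 libraries (1.30). On total counts with no scaling factor, abc3 was highest there, at 98.9, 102.3 and 102.6 CPM in STF6 replicates 1, 2 and 3. The other members remained lowest there. The share of all loci that were lowest in it was not counted. Without STF6 replicate 1, abc3 and srx1 were higher in STF9 than in STF6 (log2 fold change 0.30, SE 0.09, and 0.49, SE 0.13, edgeR adjusted p = 0.0249 and 0.0144).

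**Figure D3:**
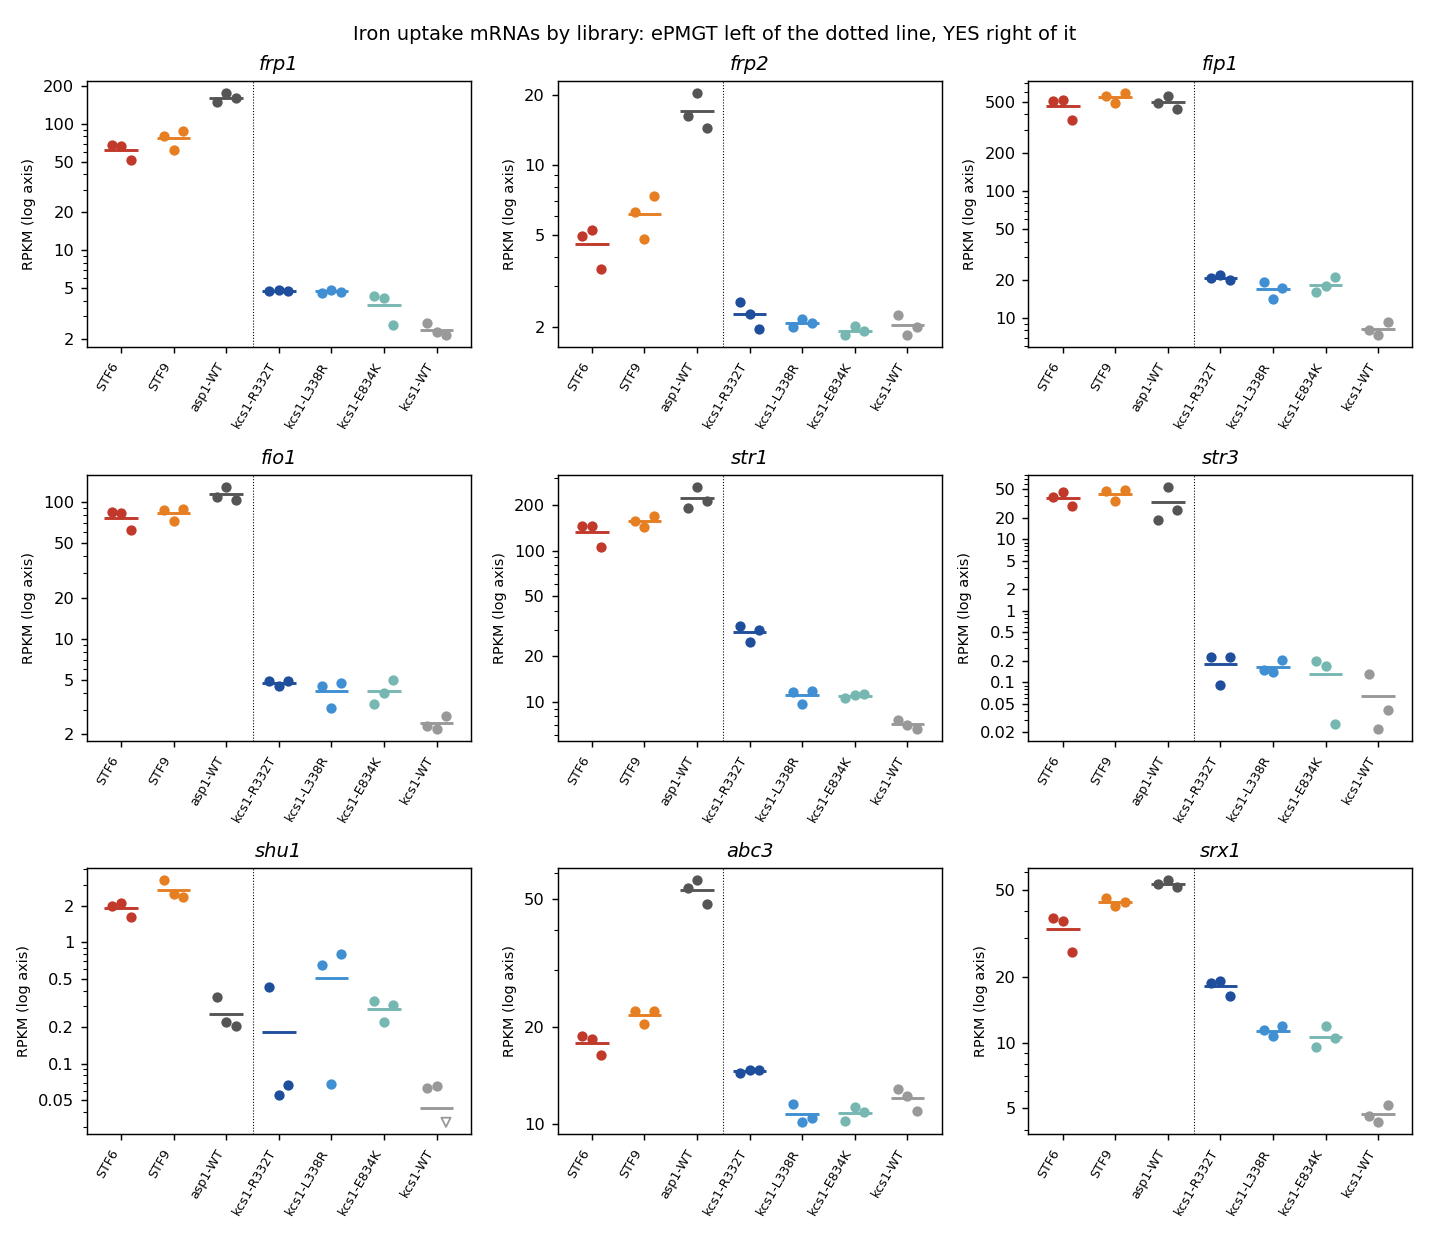
Level of each mRNA in every library, as RPKM on a log axis that differs between panels; each point is 1 library, horizontal bars are group means, the open triangle is a library with 0 reads, and the dotted line parts the ePMGT groups from the YES groups. The frp1, frp2 and abc3 points of STF6 and STF9 lie below all asp1-WT points, fip1 overlaps across the 3 ePMGT groups, and str1 of kcs1-R332T (25.0 to 31.7 RPKM) stands above the other YES groups.

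In the kcs1 mutants in YES, frp1, fip1, fio1, str1 and srx1 rose in all 3 mutants. Only 7 members could be tested. In kcs1-R332T 6 were higher than in kcs1-WT (14.3% of all 6093 loci were higher and 19.8% lower). In kcs1-L338R 5 were higher (10.9% of loci) and abc3 was lower (11.5% of loci). In kcs1-E834K 5 were higher (12.4% of loci, with 15.4% lower). Under the 2-fold rule 5 members of kcs1-R332T were called higher (0.525% of loci), 2 of kcs1-L338R (0.46%) and 2 of kcs1-E834K (0.689%). The median log2 fold change of the 7 members was 1.08 (kcs1-R332T), 0.75 (kcs1-L338R) and 0.69 (kcs1-E834K), against 0.01, -0.04 and 0.02 over all loci. The study named str1, srx1, fip1, frp1 and fio1 from these samples, so their calls are not independent evidence, and the 3 mutants share their kcs1-WT libraries.

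The reductases behaved unlike each other. The frp1 mRNA had 9.77, 9.81 and 9.73 CPM in kcs1-R332T, 9.42, 9.87 and 9.52 CPM in kcs1-L338R, and 8.78, 8.46 and 5.18 CPM in kcs1-E834K, against 5.44, 4.55 and 4.31 CPM in kcs1-WT. All libraries of the first 2 mutants lay above the wild type, while replicate 3 of kcs1-E834K fell inside its range. The frp1 mRNA rose in kcs1-R332T (log2 fold change 1.08, SE 0.17), kcs1-L338R (0.99, SE 0.18) and kcs1-E834K (0.69, SE 0.18), with edgeR adjusted p = 4.01e-04, 0.00117 and 0.01. The last of these did not pass without kcs1-E834K replicate 1 or without replicate 2 (log2 fold change 0.57 and 0.59, edgeR adjusted p = 0.0508 and 0.0543). The frp2 mRNA had 4.36, 3.87 and 3.34 CPM in kcs1-R332T, 3.42, 3.68 and 3.52 CPM in kcs1-L338R, and 3.13, 3.42 and 3.27 CPM in kcs1-E834K, against 3.81, 3.14 and 3.40 CPM in kcs1-WT. All 4 groups overlapped and frp2 passed in no mutant (log2 fold change 0.21, SE 0.15, 0.02, SE 0.16, and -0.04, SE 0.16).

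Both genes of the oxidase and permease pair rose in every kcs1 mutant. The fip1 mRNA had 36.4, 39.0 and 35.3 CPM in kcs1-R332T, 33.9, 25.2 and 30.6 CPM in kcs1-L338R, and 28.4, 31.8 and 37.3 CPM in kcs1-E834K, against 14.2, 12.9 and 16.6 CPM in kcs1-WT. Its log2 fold changes were 1.39, 1.01 and 1.19 (SE 0.13 each, edgeR adjusted p = 2.95e-06, 6.77e-05 and 1.62e-05). The fio1 mRNA had 13.7, 12.6 and 13.6 CPM in kcs1-R332T, 12.7, 8.75 and 13.2 CPM in kcs1-L338R, and 9.39, 11.2 and 14.0 CPM in kcs1-E834K, against 6.44, 6.15 and 7.62 CPM in kcs1-WT. No mutant library of either gene overlapped the wild type, and the fio1 changes were 1.03, 0.75 and 0.81 (SE 0.17 each, edgeR adjusted p = 4.64e-04, 0.0062 and 0.00333). In kcs1-L338R the same library, replicate 2, was the lowest for both genes.

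The str1 mRNA showed the widest gap between alleles. It had 94.9, 74.6 and 89.0 CPM in kcs1-R332T, 35.0, 28.7 and 35.4 CPM in kcs1-L338R, and 31.5, 33.2 and 33.5 CPM in kcs1-E834K, against 22.8, 21.1 and 19.8 CPM in kcs1-WT. No library overlapped the wild type, and every kcs1-R332T library exceeded all those of the other mutants. The rise was 4.18-fold in kcs1-R332T (log2 fold change 2.07, SE 0.10), 1.53-fold in kcs1-L338R (0.62, SE 0.10) and 1.58-fold in kcs1-E834K (0.66, SE 0.10), with edgeR adjusted p = 3.25e-09, 4.87e-04 and 2.67e-04.

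Reads of str3 and shu1 were too few in YES for a test. The str3 gene had 11, 5 and 10 reads in kcs1-R332T, 6, 6 and 9 in kcs1-L338R and 9, 9 and 1 in kcs1-E834K, against 6, 1 and 2 in kcs1-WT. The ratio of its summed CPM to kcs1-WT was 2.76 for kcs1-R332T (exact 95% interval 1.25 to 6.69), 2.54 for kcs1-L338R (1.11 to 6.29) and 2.15 for kcs1-E834K (0.926 to 5.39). The shu1 gene had 7, 1 and 1 reads in kcs1-R332T, 9, 1 and 12 in kcs1-L338R and 5, 4 and 4 in kcs1-E834K, against 1, 1 and 0 in kcs1-WT. Its ratios were 4.30 (0.889 to 40.9), 12 (2.94 to 105) and 6.62 (1.5 to 60.4) in the same order of mutants. These intervals cover counting error only and not the spread between cultures, which for shu1 ran between 1 and 12 reads within kcs1-L338R.

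The abc3 mRNA differed little. It had 69.3, 70.9 and 71.2 CPM in kcs1-R332T, 55.8, 48.9 and 50.5 CPM in kcs1-L338R, and 49.4, 54.5 and 52.6 CPM in kcs1-E834K, against 62.1, 59.2 and 52.9 CPM in kcs1-WT. Only the kcs1-R332T libraries stood clear of the wild type, at a log2 fold change of 0.32 (SE 0.06, edgeR adjusted p = 0.00163). The fall in kcs1-L338R (-0.19, SE 0.06, edgeR adjusted p = 0.0493) was at the threshold and did not pass with DESeq2 (adjusted p = 0.0552). Same-numbered libraries of these groups also deviated together, and with the replicate number as a block in a fit of only kcs1-L338R and kcs1-WT it did not pass either (-0.17, SE 0.08, edgeR adjusted p = 0.138). The difference in kcs1-E834K did not pass (-0.12, SE 0.06, edgeR adjusted p = 0.189). The srx1 mRNA had 14.2, 14.5 and 12.5 CPM in kcs1-R332T, 8.64, 8.12 and 9.04 CPM in kcs1-L338R, and 7.24, 9.02 and 8.016 CPM in kcs1-E834K, against 3.49, 3.28 and 3.92 CPM in kcs1-WT. It rose well clear of the wild type in all 3 mutants, 3.97-fold, 2.37-fold and 2.32-fold (log2 fold change 1.99, 1.25 and 1.22, SE 0.14 each, edgeR adjusted p = 2.09e-07, 2.53e-05 and 3.26e-05). An antisense noncoding RNA covers 91.0% of srx1 in the annotation and was not counted.

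**Figure D4:**
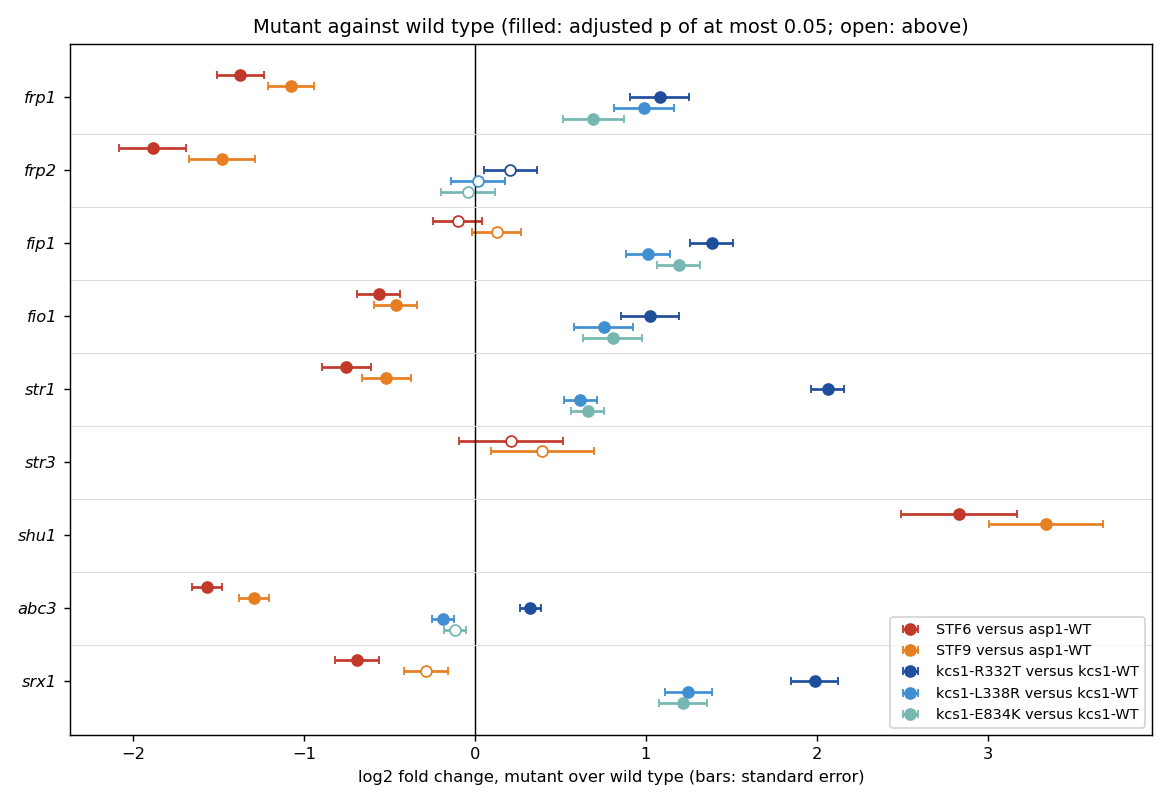
Fitted log2 fold change of each mutant over its wild type, with bars of 1 standard error; filled points have an edgeR adjusted p of at most 0.05, and str3 and shu1 have no kcs1 points because they were not tested there. The STF points of frp1, frp2, fio1, str1, abc3 and srx1 lie left of 0 and those of shu1 right of 0, while the kcs1 points of frp1, fip1, fio1, str1 and srx1 lie right of 0.

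Set against each other, kcs1-R332T differed most from the other alleles. Of 7 members, 4 were higher in kcs1-R332T than in kcs1-L338R (17.6% of loci were higher and 19% lower), and 3 were higher than in kcs1-E834K (4.05% higher and 9.88% lower). The 2-fold rule left only str1 in each, against 0.394% and 0.197% of loci. The str1 mRNA exceeded kcs1-L338R 2.73-fold (log2 fold change 1.45, SE 0.09, edgeR adjusted p = 1.13e-07) and kcs1-E834K 2.65-fold (1.41, SE 0.09, edgeR adjusted p = 1.85e-07). The srx1 mRNA exceeded them by 0.74 and 0.77 (SE 0.13 each) and abc3 by 0.51 and 0.44 (SE 0.06 each) on the log2 scale, with edgeR adjusted p = 8.08e-04, 9.89e-04, 6.49e-05 and 3.7e-04. The fip1 mRNA was also higher than in kcs1-L338R (log2 fold change 0.37, SE 0.12, edgeR adjusted p = 0.0286), a call that was lost without any one of 5 libraries, namely kcs1-R332T replicates 1, 2 and 3 and kcs1-L338R replicates 2 and 3 (edgeR adjusted p between 0.0510 and 0.104). The frp1, frp2 and fio1 mRNAs did not pass in either contrast. Between kcs1-L338R and kcs1-E834K no member passed in edgeR or DESeq2, none had an unadjusted p under 0.05, and 0 loci of all those tested passed in edgeR (893 at an unadjusted p under 0.05, and 15 in DESeq2). The member differences there lay between -0.18 and 0.30 on the log2 scale, with SE of 0.06 to 0.17.

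**Figure D5:**
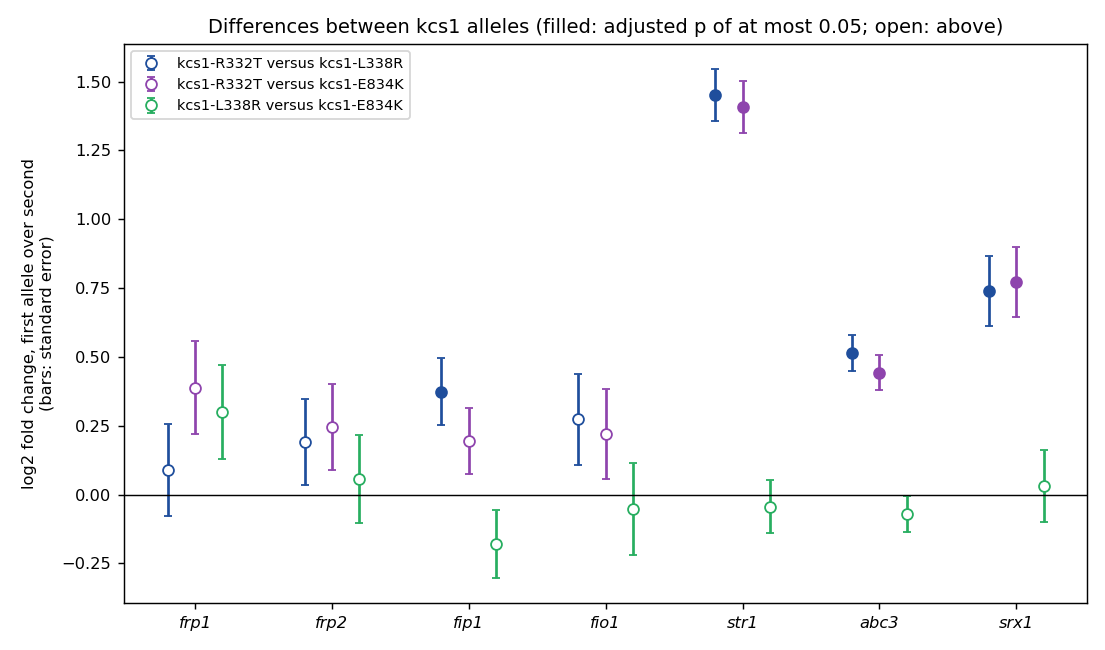
Differences between kcs1 alleles as log2 fold changes of the first allele over the second, with bars of 1 standard error; filled points have an edgeR adjusted p of at most 0.05. The str1 differences of kcs1-R332T (1.45 and 1.41) stand highest, followed by srx1 and abc3, and all points of kcs1-L338R over kcs1-E834K are open.

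The mean effect of the STF alleles was compared with the mean effect of the kcs1 alleles in one fit of all 21 libraries. Both str3 and shu1 had too few YES reads to enter the test through the kcs1 groups. The other 7 members all had a lower value for the STF effect (12.8% of 6202 loci did, and 20.7% a higher one) and were called at 2-fold (2.32% of loci). Their median was -1.72 on the log2 scale, against 0.04 over all loci. The study named each of these 7 from these samples, as lower in STF mutants or higher in kcs1 mutants. Their calls here are therefore not independent evidence. The difference was widest for frp1 (log2 difference -2.12, SE 0.18, edgeR adjusted p = 2.84e-09). It did not pass for str3 (-0.97, SE 0.94, edgeR adjusted p = 0.446) or shu1 (0.46, SE 2.00, edgeR adjusted p = 0.878). Gene, allele and medium differ together between the experiments and cannot be told apart.

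Other genes of the pathway are given as counts, to be read against the share of all loci that passed: in STF6 16.6% higher and 11.6% lower, in STF9 18.2% and 15.1%, in kcs1-R332T 14.3% and 19.8%, in kcs1-L338R 10.9% and 11.5%, in kcs1-E834K 12.4% and 15.4%, and between the wild types 34.4% and 29.8%. Of 4 other uptake and siderophore genes (str2, sib1, sib2 and sib3), 1 was lower in STF6, 1 higher in STF9, 1 lower in kcs1-R332T, none changed in kcs1-L338R and 1 was lower in kcs1-E834K. Between the wild types 2 were higher and 2 lower in asp1-WT, with a median log2 fold change of 0.01. Of 9 regulator genes, 2 were lower in STF6, 2 were higher and 2 lower in STF9, 2 were higher and 4 lower in kcs1-R332T, 2 were higher and 2 lower in kcs1-L338R, and 1 was higher and 2 lower in kcs1-E834K. Between the wild types 4 regulator genes were higher and 2 lower in asp1-WT. Their median log2 fold change there was 0.11, against 0.07 over all loci. With lists this short, several of these counts are near the share of all loci. The repressor genes php4 and fep1 are named for their known role, after their values were seen. The php4 mRNA, for the repressor of iron-using genes, was lower in STF6 and STF9 (log2 fold change -0.55, SE 0.11, and -0.44, SE 0.11, edgeR adjusted p = 0.00201 and 0.00716), higher in kcs1-R332T (0.35, SE 0.09, edgeR adjusted p = 0.0114) and higher in asp1-WT than in kcs1-WT (1.78, SE 0.09, edgeR adjusted p = 5.82e-09). The fep1 mRNA, for the repressor of the uptake genes, was also higher in asp1-WT than in kcs1-WT (0.82, SE 0.08, edgeR adjusted p = 6.99e-07) and higher in kcs1-L338R than in kcs1-WT (0.16, SE 0.05, edgeR adjusted p = 0.0448), and passed in no other mutant.

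The list of 19 iron-using genes had 8 members up and 4 down in STF6, and 10 up and 2 down in STF9, beside the same shares of all loci. It had 3 up and 10 down in kcs1-R332T, 8 up and 0 down in kcs1-L338R, and 6 up and 1 down in kcs1-E834K. Between the wild types 2 were higher and 13 lower in asp1-WT, with a median of -0.37 against 0.07 over all loci. Of these genes, 3 changed at least 1.5-fold in the same direction in both STF mutants. The isa1 mRNA, for an iron-sulfur cluster assembly protein, was higher (log2 fold change 0.90 and 1.0, SE 0.09 each), as was ctt1, for the heme enzyme catalase (0.59 and 0.89, SE 0.14 each). The sir1 mRNA, for a subunit of sulfite reductase, was lower (-1.07 and -0.87, SE 0.11 each). None of the listed genes met this rule in all 3 kcs1 mutants.

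Across all 21 libraries, each experiment's mean removed from log2 CPM, the locus most like frp1 was rbd2 (SPCC790.03), with a Pearson r of 0.95, followed by pib2 (0.91), amf1 (0.90), SPCC70.08c (0.89) and SPBC1271.07c (0.89). For fip1 the nearest was srx1 (0.90), then SPNCRNA.1563 (0.87), SPBCPT2R1.04c (0.86), fio1 (0.86) and SPAC4G9.22 (0.84). For str1 they were SPNCRNA.605 (0.92), pho843 (0.91), srx1 (0.89), SPNCRNA.472 (0.89) and SPNCRNA.671 (0.86). So srx1 was among the 5 nearest of 6043 loci for both fip1 and str1, and no member was among the 5 nearest to frp1. These values describe libraries that share groups, media and depth. Within the 9 STF libraries frp1 and frp2 had a Pearson r of 0.99, and within the 12 kcs1 libraries 0.37. In the same order, fip1 had 0.59 and 0.94 with srx1, and 0.52 and 0.96 with fio1. For str1 the values were 0.53 and 0.97 with SPNCRNA.605, and 0.92 and 0.89 with srx1. For frp1 and rbd2 they were 0.98 and 0.89.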

How the data were processed

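Per the labels and the study's methods, the authors mapped 51-base poly(A)+ reads with HISAT2 2.1.0 to ASM294v2, used SAMtools, and deposited HTSeq 0.10.0 counts, whole numbers of reads per locus. The strand setting of the counting is not given in the sources used here, and the labels and methods name different stranded kits. The authors' DESeq2 comparison tables were not used. The 9 members and the gene lists were chosen with earlier results of these data known. All members were named, genes of the iron lists were named if they passed in every mutant of an experiment at 1.5-fold or more (php4, fep1 and the mating markers were named outside this rule, after their values were seen), and for frp1, fip1 and str1 the 5 most similar loci were named. The mating receptor genes map3 and mam2 were first listed under the wrong mating type and were exchanged after the values were seen. Names, exon lengths and promoters came from RefSeq ASM294v3 (6836 of 6988 loci matched by systematic identifier). The build differs from that of the counts, so no genome coordinates are given.

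Each experiment was fitted with all its groups in edgeR 4.0.16 (R 4.3.3, limma 3.58.1): filterByExpr, TMM scaling, quasi-likelihood F test, Benjamini-Hochberg adjustment over all loci tested. The wild types were fitted alone (6 libraries) and the difference of mean effects on all 21. SE was taken as log2 fold change over the root of the F statistic. A locus passed at an adjusted p of 0.05 or less. CPM and RPKM used TMM factors over all 21 libraries. Alternatives were other size factors, DESeq2 1.42.0, no filter, only the groups compared, a replicate block and leaving out each library. The added ones, chosen after seeing the data, were total counts with no scaling factor and, for the wild types, a fit of all 21 libraries. By the correlation of deviations from group means, every same-numbered pair exceeded 0.1 in 2 of 9 pairs of groups, STF6 with asp1-WT (r 0.25 to 0.53) and kcs1-L338R with kcs1-WT (0.12 to 0.36). The labels give no reason for a pairing, and a block fit of only those groups was added after seeing the data. The scripts were tested on simulated data. P-values measure the spread between the biological replicates sequenced.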

Additional observations from a re-analysis of the deposited data

Results flagged for a closer look

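Among the members, 7 had mutant effects that differed between the 2 experiments, by the edgeR test of the mean STF effect minus the mean kcs1 effect. The log2 differences were -2.12 for frp1, -1.72 for frp2, -1.16 for fip1, -1.35 for fio1, -1.73 for str1, -1.41 for abc3 and -1.95 for srx1, with adjusted p between 4.65e-11 and 6.23e-06. Of the mutants against their wild types, frp2 passed in STF6 and STF9 and in no kcs1 mutant, and fip1 in all 3 kcs1 mutants and in neither STF mutant, as the plot of fold changes by mutant shows. The study named these 7 members from these samples, so the differences are not independent evidence. The experiments also differ in medium, and this cannot be told apart from the mutations. Groups of 3 libraries are too small for a test of single outlying values.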

How the results depend on the processing

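The counts here include shu1 in the STF comparisons and str3 between the wild types, which the counts above left out. Of the counts of members that passed, none changed by more than 1.5 times except as follows. The 1 member lower in kcs1-L338R (abc3) became 0 with other size factors, DESeq2, no filter or only the groups compared, and ranged between 0 and 1 when single libraries were left out. With only the groups compared, 5 members in place of 3 were higher in kcs1-R332T than in kcs1-E834K. A replicate block made 2 members (abc3 and srx1) higher in STF9 than in STF6 in place of 0 and let srx1 pass as lower in STF9, and changed no other call. In fits of only 2 groups with the block, 2 members (shu1 and str3) in place of 1 were higher in STF6 and 0 in place of 1 lower in kcs1-L338R, and no other call changed. Leaving out single libraries gave 1 to 2 members higher in STF6, 3 to 6 lower and 1 to 2 higher in STF9, and 0 to 2 higher in STF9 than in STF6. Of 1496 fold changes, 16 turned sign, all with an adjusted p of at least 0.61. Over the libraries left out, str3 in STF6 ranged between -0.076 and 0.78, fip1 in STF9 between -0.00012 and 0.22, fio1 in STF9 over STF6 between -0.017 and 0.23, frp2 in kcs1-L338R between -0.047 and 0.082 and in kcs1-E834K between -0.10 and 0.025. In kcs1-L338R over kcs1-E834K, frp2 ranged between -0.0055 and 0.12, fio1 between -0.18 and 0.11, str1 between -0.11 and 0.019 and srx1 between -0.044 and 0.12. With total counts and no scaling factor, fip1 in STF9 was -0.069, fio1 in STF9 over STF6 -0.059, frp2 in kcs1-L338R -0.00252 and srx1 in kcs1-L338R over kcs1-E834K -0.000933; the causes were not tested. That scaling moved the median of all loci to -0.23 in STF9, -0.21 in STF9 over STF6, 0.12 in kcs1-R332T over kcs1-L338R, 0.48 between the wild types and -0.12 for the difference of effects, where the main medians were -0.03, -0.04, 0.02, 0.07 and 0.04. Under it, 26 of 63 group levels moved by more than 1 SD. Reads limit shu1 in both media and str3 in YES: 3 reads equal between 0.0753 and 0.164 CPM per library.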
